A study of Mus musculus with 12 samples.

Results

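The effect of removing Mcu from fat was compared between brown fat (BAT) and the white fat of the inguinal pad (WAT), by asking of each gene how far the knockout effect in BAT departed from that in WAT. All 12 RNA sequencing libraries of the study entered the comparison, 3 in each of 4 groups, and 16391 of the 52550 gene IDs counted passed the filter on low counts and were tested. The controls were Mcu fl/fl mice, in which the Mcu gene is floxed but not deleted. The other genotype was Mcu fl/fl AKO, an adipose tissue-specific knockout obtained with CRISPR/Cas9 per the series' design text, here called AKO. Both genotypes therefore carried the floxed alleles, and both were kept on a high-fat diet. Each depot thus has a control group and an AKO group. The promoter that drives the deletion, and the mice's strain, age and sex, are not given in the sources that were used. Replicates are numbered in the labels with no word on whether each is a separate animal, so a p-value measures only how these libraries spread, which may be technical.

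Mcu encodes the pore of the mitochondrial calcium uniporter, the channel through which calcium enters the mitochondrial matrix down the membrane potential. Micu2 and Micu3 encode gatekeepers of the channel, Smdt1 (EMRE) a small subunit that the pore needs, and Mcub a pore subunit that conducts poorly. White fat stores triglyceride and releases fatty acids and hormones, whereas brown fat burns fuel and makes heat through Ucp1, a proton leak protein of the inner mitochondrial membrane.

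Libraries held between 15692588 and 18967159 counts. As CPM of the library total, Ucp1 measured 3191 to 4323 in the 6 BAT libraries and at most 13.8 in the 6 WAT libraries, and Hoxc10 measured 12.7 to 24.5 in WAT and at most 0.0617 in BAT. Of the other depot markers, Lhx8 was not higher in BAT, and Tcf21 lay between 0 and 0.247 in all 12 libraries. WAT AKO 2, BAT AKO 2 and WAT control 1 held most skeletal muscle transcripts, with 2.87%, 2.24% and 1.62% of their counts, and every other library held at most 0.423%. Cd79a, a B lymphocyte receptor component, measured 173, 123 and 307 in WAT AKO and 106 in WAT control 2. It measured 0.949 and 0.339 in WAT controls 1 and 3 and 0.762 to 3.39 in BAT. The 17 B lymphocyte genes together took 0.0838% to 0.176% of counts in WAT controls, 0.175% to 0.355% in WAT AKO and 0.00417% to 0.00801% in BAT. The counts of genes below are also given without the libraries concerned, or with the B lymphocyte share as a covariate.

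**Figure D1:**
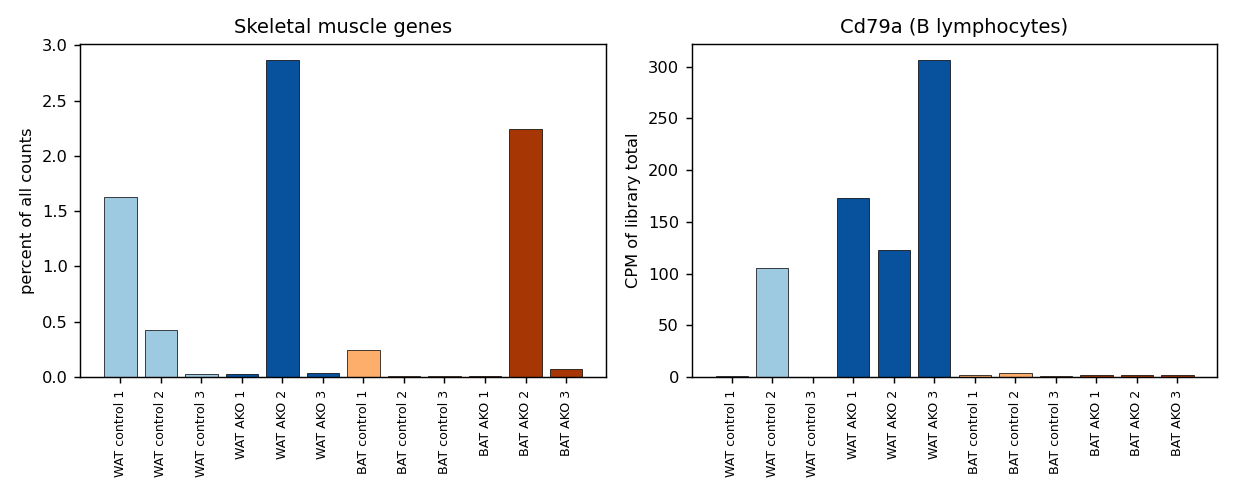
Share of counts from 24 skeletal muscle genes (left, percent of all counts) and level of Cd79a (right, CPM of the library total) in each of the 12 libraries, 1 bar per library, coloured by group. Muscle counts stand out in WAT control 1, WAT AKO 2 and BAT AKO 2, and Cd79a in WAT AKO and WAT control 2.

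Mcu itself (chr10:59446984-59616692, mm10) fell in both depots. It measured 18.02, 18.8 and 18.8 CPM in WAT controls and 10.1, 12.5 and 10.9 in WAT AKO. In BAT the levels were 26.6, 28.8 and 23.99 in controls and 9.47, 14.6 and 8.29 in AKO. The groups did not overlap in either depot. Mean Mcu in AKO was 60.3% of control in WAT and 40.7% in BAT (exact two-sided permutation test, p = 0.1 in each depot, the smallest that 3 against 3 allows). In bulk tissue, fewer cells of a type and less RNA per cell cannot be told apart. In edgeR's test Mcu fell in WAT (log2 −0.73, adjusted p = 0.0435) and in BAT (log2 −1.30, adjusted p = 0.049). The fall in BAT was not shown to exceed that in WAT (difference −0.57, 95% interval −1.14 to 0.00, adjusted p = 0.275). None of 5 partners, Mcub, Micu2, Micu3, Smdt1 and Mcur1, passed the test of the difference in edgeR. Their differences ran from −0.0026 for Smdt1 to 0.44 for Mcur1, and Mcur1 alone of the 5 had an unadjusted p under 0.05 (0.00943).

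Across all genes tested, the knockout effects in the 2 depots showed almost no correlation. The log2 fold changes had a Pearson correlation of 0.0256 and a Spearman correlation of 0.0417 across 16391 genes, which share the 12 libraries and are not independent, and 47.9% of genes had opposite signs. The median absolute log2 effect was 0.273 in WAT and 0.185 in BAT. AKO passed the test in WAT for 1030 genes (6.28% of those tested; 439 higher and 591 lower, or 397 higher and 820 lower with RLE normalisation) and in BAT for 9 genes (0.0549%; 5 higher, 0.0305%, and 4 lower, 0.0244%). The difference between the depots, written throughout as the log2 effect in BAT minus that in WAT, passed for 45 genes (0.275%). It was positive for 25 (0.153%) and negative for 20 (0.122%). On log2(FPKM + 1), which is scaled to the library total only, 25 of 99 were positive and 74 negative. In all 45 the effects in WAT and BAT had opposite signs, and 44 were protein coding. The WAT effect passed its own test in 40 of the 45 and the BAT effect in 1, Klf11. Groups were separated, meaning that no AKO library overlapped a control library, in WAT for 45 (29.9% of all genes tested) and in BAT for 38 (18.6%). Both effects had an unadjusted p under 0.05 with opposite signs in 34 of the 45, against 1.39% of all genes tested. The WAT effect was the larger of the 2 in 40. The 45 were chosen by the difference in these same libraries, which favours opposite signs and separated groups. These counts thus describe the chosen genes and are no separate support for opposite effects. Absolute differences ran from 0.70 for Mcm7 to 3.85 for Pmaip1, leaving aside Cxcr2, whose BAT AKO libraries were at or near 0. The BAT levels of Pmaip1 were also low, at most 1.20 CPM, and its BAT groups overlapped. The genes named below include 32 of the 45, and the absolute differences of the other 13 lay between 0.88 and 3.09.

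**Figure D2:**
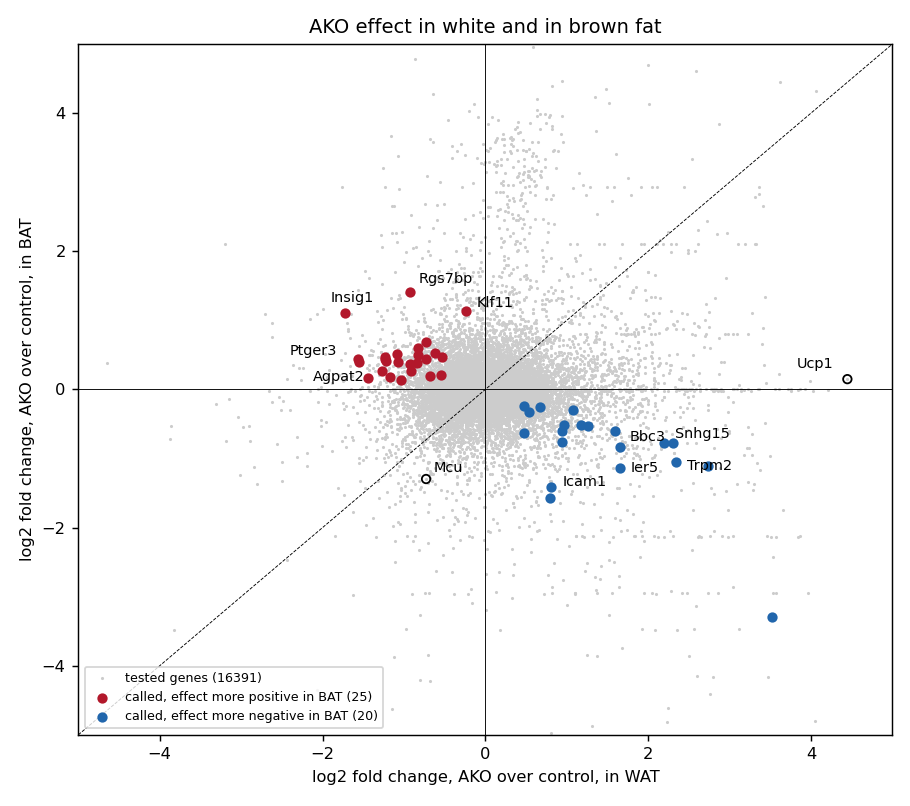
Log2 fold change of AKO over control in WAT (x axis) against BAT (y axis) for each gene tested, with the 45 genes whose effects differed between depots in red (25, more positive in BAT) and blue (20, more negative in BAT). All coloured points lie in the upper left and lower right quadrants, 9 genes lie outside the plotted range, and the dashed line marks equal effects.

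The number of genes passing depended on single libraries. Leaving out 1 library moved the WAT count between 45 (without WAT AKO 3) and 2992 (without WAT control 2), and the 6 WAT libraries alone gave 3. The BAT count moved between 4 (without WAT control 1, BAT control 3 or BAT AKO 1) and 73 (without BAT control 2). The 6 BAT libraries alone gave 11 (7 higher and 4 lower). With each depot fitted alone, WAT thus did not have the larger count. For the difference, the labels give the same numbers in both depots, and with genotype and number together as a block, here the genotype-number block, 261 genes passed (1.59%; 106 positive, 0.647%, and 155 negative, 0.946%), 44 of the 45 among them, and the exception was Mcm7 (adjusted p = 0.0538). Whether a number marks an animal is not given, so values with this block are those of an alternative fit and not of the reported test. With WAT control 2 left out 923 passed, with BAT control 2 left out 135 and with WAT AKO 2 left out 107. Without WAT control 1 the count was 35 and without WAT control 3 it was 12. Leaving out WAT AKO 1, WAT AKO 3, BAT control 3 or BAT AKO 1 left 2 genes, which were Klf11 and Ier5 each time. Without BAT control 1, BAT AKO 2 or BAT AKO 3 the counts were 5, 11 and 4. Without the 3 libraries with most muscle counts 5 genes passed, with the B lymphocyte share as a covariate 5, and with WAT control 2 as the only WAT control, which is assumed to vary like the other groups, 24. With control 2 as the only control of each depot, a choice made after seeing the data, edgeR's test passed 0 genes (1523 had an unadjusted p under 0.05). Each control arm then has 1 library, assumed to vary like the AKO groups, so that fit says little of stability. Every one of the 45 kept its sign in each of these fits in which it was tested. The 45 were chosen in these same libraries, most of which each fit reuses, so a kept sign was likely from the start.

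Klf11 and Ier5 had the smallest p-values in the 2 directions and passed in 29 of 30 alternatives, the exception being the fit with 1 control library in each depot (adjusted p = 0.133 for both). Klf11 (chr12:24651274-24662789) encodes a Krüppel-like transcription factor that regulates metabolic genes in fat. It measured 22.1, 20.2 and 21.6 CPM in WAT controls and 18.1, 18.9 and 16.99 in WAT AKO. In BAT it measured 16.9, 16.5 and 16.8 in controls and 38.1, 36.6 and 36.3 in AKO. All 3 BAT AKO libraries stood well above the other 9, while the WAT groups lay close together without overlap. Klf11 rose in BAT (log2 1.14, adjusted p = 0.000319) and its WAT effect was −0.24 (adjusted p = 0.0804), a difference of 1.38 (SE 0.111, adjusted p = 0.0014). Ier5 (chr1:155096361-155099636), an immediate early response gene whose product modulates heat shock factor activity, showed the reverse. It measured 34.9, 34.98 and 31.8 CPM in WAT controls and 100.1, 89.5 and 129.97 in WAT AKO. The BAT levels were 36.99, 38.6 and 45.1 in controls and 18.9, 21.7 and 14.2 in AKO. Controls of both depots thus lay between 31.8 and 45.1, with WAT AKO above and BAT AKO below them. Ier5 rose in WAT (log2 1.65, adjusted p = 0.00359). Its BAT effect of −1.14 did not pass (adjusted p = 0.0612), and the difference was −2.79 (SE 0.241, adjusted p = 0.0015).

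**Figure D3:**
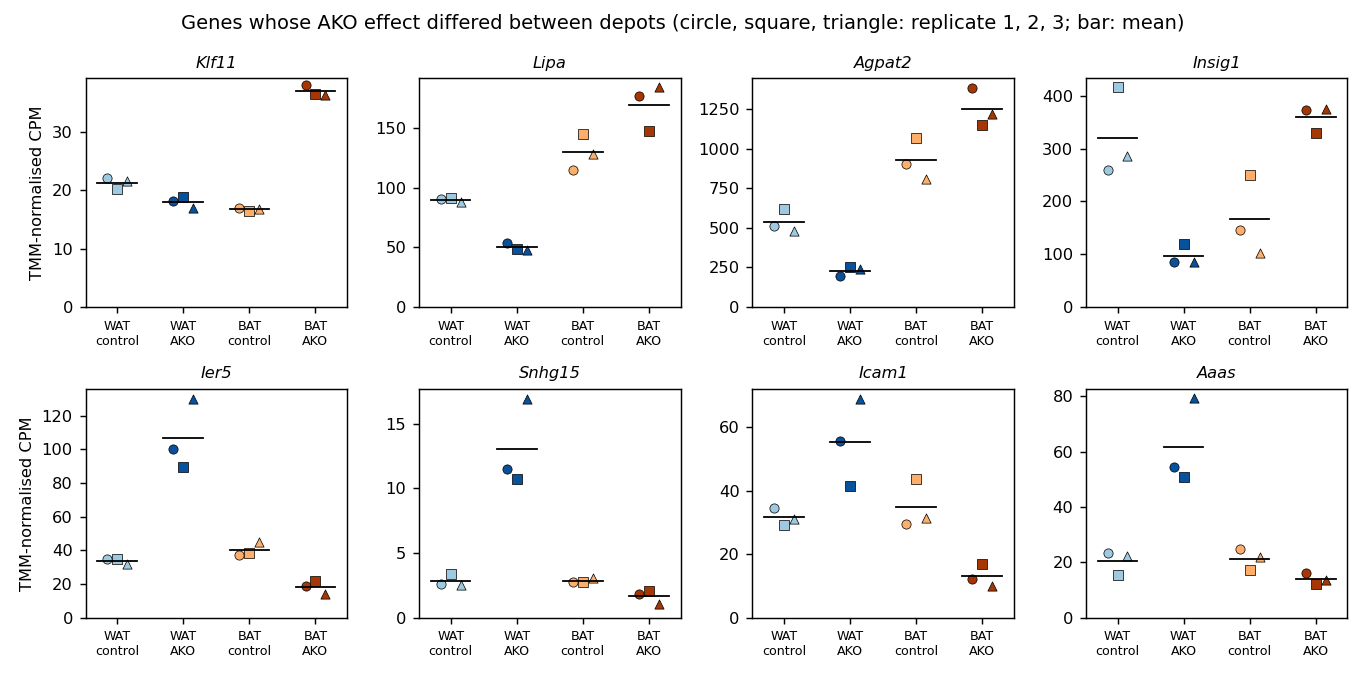
TMM-normalised CPM of 8 genes in each library, 1 point per library and a bar at the mean of 3, with replicates 1, 2 and 3 as circle, square and triangle. The upper row holds genes with a more positive AKO effect in BAT and the lower row genes with a more negative one, and in every panel the AKO points lie outside the controls of their own depot, on opposite sides in WAT and BAT.

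Genes of triglyceride and lipid handling were among the 25 with a positive difference. Agpat2 makes phosphatidic acid, a precursor of triglyceride, and its loss causes lipodystrophy. Agpat2 (chr2:26593057-26604417) measured 509, 617 and 477 CPM in WAT controls against 194, 251 and 239 in WAT AKO. BAT libraries held 904, 1067 and 806 in controls against 1383, 1148 and 1221 in AKO. It fell in WAT (log2 −1.23, adjusted p = 0.006), had a BAT effect of 0.43 (unadjusted p = 0.0143), and differed by 1.66 (SE 0.212, adjusted p = 0.0228). Dgat2, which catalyses the last step of triglyceride synthesis, measured 2368, 2502 and 2760.4 CPM in WAT controls and 1159, 1373 and 1074 in WAT AKO. The BAT levels of 2479.9, 2626 and 1817 in controls and 3991, 2488 and 3369.5 in AKO overlapped. Its difference was 1.59 (SE 0.269, adjusted p = 0.0482). Lipa, the lysosomal acid lipase, went from 90.5, 91.6 and 87.9 to 53.5, 48.8 and 48.2 CPM in WAT. In BAT the levels were 115, 145 and 128 in controls and 177, 148 and 185 in AKO, a difference of 1.23 (SE 0.154, adjusted p = 0.0228). Of 20 glycerolipid and lipid droplet genes, Agpat2 and Dgat2 passed the test of the difference, 9 had a positive difference at an unadjusted p under 0.05 (8.34% of all genes tested did) and none a negative one. The median effect of the list was −0.24 in WAT and 0.07 in BAT, and the median difference 0.43 (−0.02 over all genes tested). In WAT 6 of the 20 fell (3.61% of genes tested did) and none rose, and in BAT none passed in edgeR (2 higher and 1 lower at an unadjusted p under 0.05, against 787 and 1077 of all 16391 genes tested). By DESeq2 7 of the 20 differences passed, all positive (615 of all 16391 in that direction). Over 30 alternatives the list's median difference ran from 0.28 to 0.50. Plin2, a lipid droplet coat protein, had effects of −1.18 in WAT and −0.37 in BAT, and Gpd1, which makes glycerol 3-phosphate, −0.83 and −0.19. Fabp5, a fatty acid carrier, had effects of −0.92 in WAT and 0.09 in BAT (difference 1.01, adjusted p = 0.0742, and 0.0334 with the genotype-number block).

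Of 24 cholesterol synthesis and uptake genes tested, 10 fell in WAT (3.61% of all genes tested did). None passed in BAT in edgeR (1 had an unadjusted p under 0.05, as did 11.4% of all genes tested). Insig1 (chr5:28071363-28078662) encodes the sterol sensor protein that holds SREBP precursors in the endoplasmic reticulum and is itself an SREBP target. It measured 260.1, 416 and 287 CPM in WAT controls and 85.8, 119 and 85.9 in WAT AKO. For BAT the values were 147, 251 and 102 in controls and 374, 329.99 and 375 in AKO. The groups were separated in both depots, in opposite directions. Insig1 fell in WAT (log2 −1.73, adjusted p = 0.0143), and its BAT effect was 1.11 (unadjusted p = 0.00311, adjusted p = 0.253). The difference of 2.84 (SE 0.419, adjusted p = 0.0275) was the largest positive one among the 45. Hmgcs1, which makes HMG-CoA for sterol synthesis, measured 159.7, 269.9 and 152 CPM in WAT controls and 59.9, 98.2 and 80.4 in WAT AKO. The BAT values were 148, 184 and 127 in controls and 188, 212 and 265 in AKO. Its difference of 1.82 had an adjusted p of 0.0723, and of 0.0125 with the genotype-number block. Sc5d and Nsdhl, enzymes of later steps, had differences of 0.94 (adjusted p = 0.0723, and 0.0422 with the block) and 1.12 (adjusted p = 0.0899). Over the list the median effect was −0.63 in WAT and −0.0013 in BAT, and the median difference 0.50. Of the 24, 20 had a positive difference, 12 of them at an unadjusted p under 0.05 (8.34% of all genes tested), and Insig1 passed. By DESeq2 9 passed, all positive (615 of all 16391 in that direction). Over 30 alternatives the median difference ran from 0.27 to 0.71. An overlapping gene, Gm48342 for Hmgcs1 and the antisense Gm47079 for Icam1, may share reads with each, since the strand setting of the counting is not given.

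The promoter of Hmgcs1 is shown because it was the one cholesterol gene window to hold both CCAAT and the sterol response element. CCAAT, the core of the site of nuclear factor Y, was searched on both strands in the 250 bases before the RefSeq start (GRCm38.p6). It was present in 16 of the 17 cholesterol genes with a window, in 10 of 19 genes with a called positive difference and in 39.6% of the 11714 tested genes with a window. The sterol response element, as TCACNCCAC, was found in 1 of the 17, Hmgcs1, in 0 of the 19 and in 1.25% of all windows of tested genes, and the E-box, as CACGTG, in 4, 2 and 9.45%. CCAAT was also present in 7 of 11 p53 targets described below and in 7 of 17 genes with a called negative difference. The cholesterol list was chosen by known function, so its shares describe the list and not these data. The capitals mark the CCAAT matches in either orientation.
Hmgcs1 (chr13:119690101-119690350, + strand): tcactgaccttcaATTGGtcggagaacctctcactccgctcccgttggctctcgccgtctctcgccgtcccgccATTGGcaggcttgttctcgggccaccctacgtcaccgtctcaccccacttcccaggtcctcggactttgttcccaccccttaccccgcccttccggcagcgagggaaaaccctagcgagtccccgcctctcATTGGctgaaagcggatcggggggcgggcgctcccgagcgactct

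Other genes with a positive difference cover hormone signalling, membranes and nucleotide synthesis. Ptger3, the prostaglandin E receptor that lowers cAMP and lipolysis in adipocytes, measured 129, 117 and 188 CPM in WAT controls and 55.8, 54.8 and 36.2 in WAT AKO. Its BAT levels were 50.8, 55.98 and 54.8 in controls and 73.4, 70.3 and 75.98 in AKO, a difference of 2.01 (SE 0.27, adjusted p = 0.0249). Prps1, which makes the ribose donor of nucleotide synthesis, had effects of −1.27 in WAT and 0.27 in BAT and a difference of 1.54. In the same order, Paqr9, a membrane receptor of the progestin and adiponectin receptor family, had −1.55, 0.39 and 1.94. For Steap3, a ferrireductase of iron uptake, these were −0.92, 0.37 and 1.29. Krt79, a keratin, was lower in AKO in WAT with overlapping BAT groups (−1.44, 0.17 and 1.61). Anpep, an aminopeptidase of the cell surface, gave −1.07, 0.39 and 1.46. Trim16, a ubiquitin ligase, gave −0.82, 0.60 and 1.43. Daam1, a formin acting in Wnt planar polarity signalling, had nearly equal and opposite effects (−0.53 and 0.47), and Gnb5, a G protein beta subunit, had −0.55 and 0.21. All 9 fell in WAT. Their adjusted p for the difference, from edgeR, ranged from 0.0228 to 0.0275.

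Genes with a negative difference had higher levels in WAT AKO and lower levels in BAT AKO than in controls. Snhg15, a non-coding host gene of a small nucleolar RNA, measured 2.61, 3.397 and 2.53 CPM in WAT controls and 11.5, 10.7 and 16.9 in WAT AKO. Its BAT levels were 2.76, 2.75 and 3.06 in controls and 1.85, 2.06 and 1.08 in AKO. The 6 control libraries of both depots covered 2.53 to 3.40, with every WAT AKO library above and every BAT AKO library below that range. The difference was −2.97 (SE 0.372, adjusted p = 0.0228). Aaas, a nuclear pore protein, measured 23.5, 15.6 and 22.4 CPM in WAT controls and 54.6, 50.9 and 79.3 in WAT AKO. In BAT the values were 24.7, 17.1 and 22.02 in controls and 16.3, 12.1 and 13.7 in AKO, a difference of −2.19 (adjusted p = 0.0262). Icam1 is a leukocyte adhesion molecule of activated endothelium. It measured 34.6, 29.2 and 31.1 CPM in WAT controls and 55.6, 41.6 and 69.1 in WAT AKO. The BAT levels were 29.6, 43.6 and 31.4 in controls and 12.2, 16.8 and 10.02 in AKO. Neither effect passed alone (0.81 in WAT, adjusted p = 0.0542; −1.42 in BAT, adjusted p = 0.0813), and the difference did (−2.23, SE 0.322, adjusted p = 0.0262).

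The differences were smaller for Pdcd11, a factor of ribosome assembly (−0.86), for Irf2, an interferon regulatory factor (−0.92), and for Mcm7, a subunit of the replicative helicase (−0.70). Zfp688, a zinc finger protein, H2afj, a histone H2A variant, and Pidd1, a scaffold for caspase-2 that p53 induces, had differences of −1.48, −1.54 and −1.69. Trpm2, a calcium-permeable channel, had −3.39 at low levels. It measured 2.41, 4.16 and 3.03 CPM in WAT controls and 14.9, 10.02 and 23.7 in WAT AKO, against 1.49, 0.987 and 0.802 in BAT controls and 0.686, 0.368 and 0.505 in BAT AKO. For these 7 the adjusted p from edgeR ranged from 0.0262 to 0.0433. Cxcr2, a neutrophil chemokine receptor chosen after its values were seen, also passed (adjusted p = 0.0482). Its WAT levels were 0.151, 0.957 and 0.354 CPM in controls and 6.02, 3.04 and 8.08 in AKO, and its BAT levels 0.522, 0.423 and 0.656 in controls and 0, 0 and 0.144 in AKO. With BAT AKO at or near 0, no fold is given.

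Among 14 targets of p53, a transcription factor of the DNA damage response, 12 had a positive effect in WAT and 12 a negative effect in BAT. Bbc3 (Puma), which promotes apoptosis, measured 27.3, 15.98 and 34.9 CPM in WAT controls and 78.3, 68.4 and 99.9 in WAT AKO. In BAT it measured 24.98, 18.1 and 22.02 in controls and 13.2, 11.4 and 11.97 in AKO. Bbc3 rose in WAT (log2 1.66, adjusted p = 0.0111), had a BAT effect of −0.83 (unadjusted p = 0.00724), and differed by −2.49 (SE 0.353, adjusted p = 0.0262). Bax, the mitochondrial pore protein of apoptosis, measured 29.5, 14.7 and 28.9 CPM in WAT controls and 57.7, 43.8 and 71.7 in WAT AKO. The BAT levels were 29.8, 13.7 and 30.6 in controls and 10.4, 8.09 and 9.299 in AKO. Control 2 was the lowest control in both depots. The Bax difference of −2.66 had an adjusted p of 0.0527, and of 0.00389 with the genotype-number block. Gtse1, a p53-induced mitotic protein, measured 21.3, 9.71 and 19.8 CPM in WAT controls and 36.4, 30.8 and 41.9 in WAT AKO, against 12.7, 1.76 and 10.8 in BAT controls and 1.098, 0.883 and 1.23 in BAT AKO. Its difference was −4.07 (adjusted p = 0.0723, and 0.0125 with the block). Aen, a nuclease of apoptosis, had a difference of −2.29 (adjusted p = 0.0974, and 0.00789 with the block).

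Of 14 p53 targets tested, 13 had a negative difference. The median effect was 0.53 in WAT and −0.84 in BAT, and the median difference −1.71 (−0.02 over all genes tested). Bbc3 passed the test of the difference, 10 of 14 had a negative difference at an unadjusted p under 0.05 (10.1% of all genes tested did), and 9 of 14 passed with the genotype-number block (0.946% of all genes did in that direction). In WAT 2 of 14 rose (2.68% of genes tested did), Bbc3 and Bax. In BAT none passed in edgeR (8 were lower at an unadjusted p under 0.05, as were 1077 of all 16391). Over 30 alternatives the median difference of the list ran from −2.45 to −1.28. Pmaip1 (Noxa), a p53 target outside the list chosen after its values were seen, also passed edgeR's test (difference −3.85, adjusted p = 0.0482). It measured 1.91, 2.54 and 1.16 CPM in WAT controls and 12.6, 11.6 and 13.4 in WAT AKO. Its BAT levels were low and overlapped, at 0.4475, 1.20 and 0.365 in controls and 0.412, 0.368 and 0.144 in AKO.

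The controls spread widely for these genes, in the same way in both depots. Control 2 was the lowest control in both WAT and BAT for 11 of the 14 (78.6%), and for 14.8% of all genes tested. WAT control 2 was also the WAT control with Cd79a at 106 CPM of the library total, while BAT control 2 had 3.39. Cdkn1a (p21), a cell cycle inhibitor, was chosen after its values were seen. It measured 481, 86.3 and 379.5 CPM in WAT controls and 335, 369 and 249.9 in WAT AKO. BAT libraries held 565, 42.2 and 494 in controls and 45.1, 40.02 and 35.8 in AKO, so that BAT control 2 lay within the range of the AKO libraries. Its difference was −3.20 (adjusted p = 0.165, and 0.013 with the block).

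BAT levels were also set against the WAT library of the same genotype and number. The log2 ratio of BAT to WAT for Bax was 0.02, −0.10 and 0.08 in controls 1, 2 and 3 and −2.46, −2.43 and −2.94 in AKO 1, 2 and 3. For Cdkn1a the ratios were 0.23, −1.03 and 0.38 in controls and −2.89, −3.20 and −2.80 in AKO. The 3 AKO ratios lay below all 3 control ratios for 11 of the 14 p53 targets (16.4% of all genes tested). For Bax the control ratios lay near 0 although control 2 was lower than the other controls in each depot. Mdm2, the ubiquitin ligase that degrades p53, and Zmat3, an RNA-binding p53 target, both chosen after their values were seen, had ratios of 0.02, −0.14 and 0.04 and of −1.16, −1.08 and −0.98 in controls. In AKO these were −1.11, −1.03 and −1.01 for Mdm2 and −2.23, −1.99 and −2.35 for Zmat3. Neither gene passed the reported test of the difference. In edgeR with the genotype-number block both did (adjusted p = 0.013 for Mdm2 and 0.0173 for Zmat3).

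**Figure D4:**
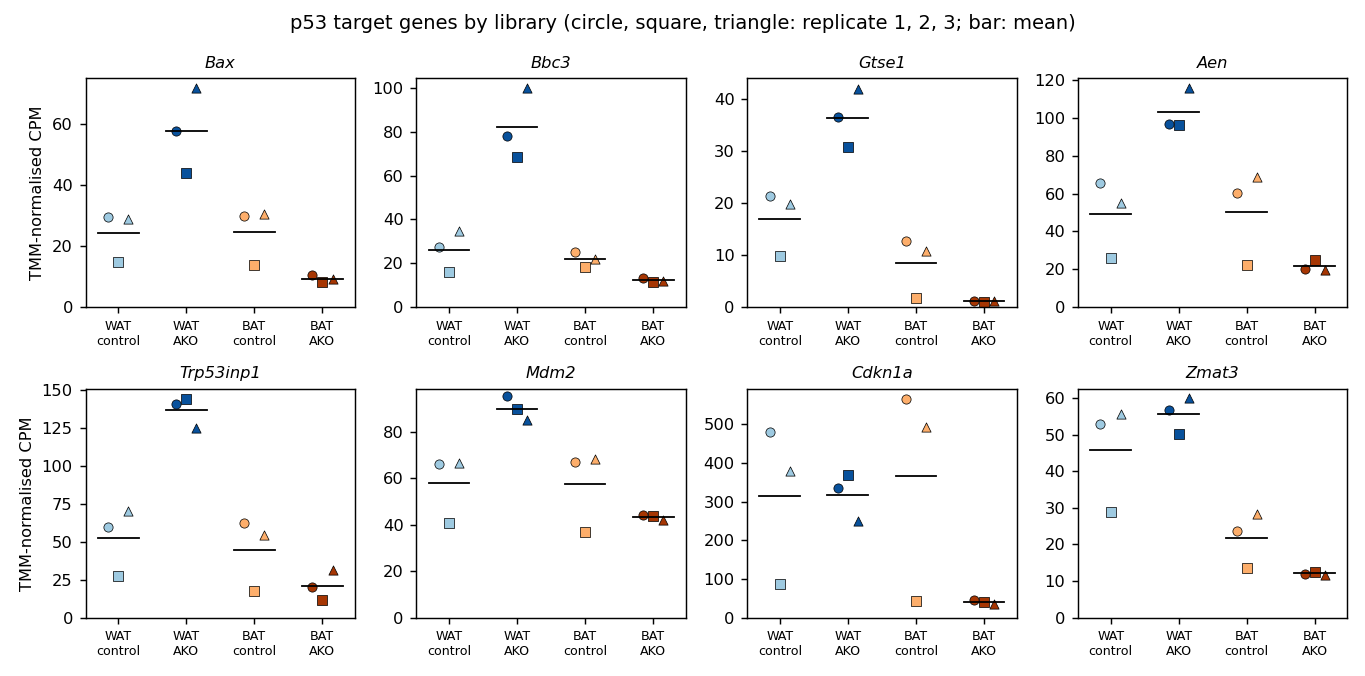
TMM-normalised CPM of 8 p53 target genes in each library, 1 point per library and a bar at the mean of 3, with replicates 1, 2 and 3 as circle, square and triangle. In all 8 panels the square of control 2 lies below the other controls in both depots, and in 6 of them, all but Cdkn1a and Zmat3, the WAT AKO points lie above every WAT control.

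Promoters of 3 genes with a negative difference are shown with the p53 consensus decamer, searched on both strands in the 250 bases before the RefSeq start (GRCm38.p6). Of the 3, Ier5 passed the test of the difference, and Bax and Mdm2 did not. The decamer is only part of a full p53 site. A match was present in 7 of the 11 p53 targets with a window, in 1 of 17 genes with a called negative difference (Ier5) and in 7.22% of the 11714 tested genes with a window. Of genes outside the list, 4 of 17 cholesterol genes, Hmgcs1 among them, also had a match. So did 1 of 19 genes with a called positive difference, Prps1. Bbc3 had no match in this window. The capitals mark the match, and the p53 list was defined by known p53 regulation, so the share describes the list and not these data.
Bax (chr7:45466899-45467148, - strand): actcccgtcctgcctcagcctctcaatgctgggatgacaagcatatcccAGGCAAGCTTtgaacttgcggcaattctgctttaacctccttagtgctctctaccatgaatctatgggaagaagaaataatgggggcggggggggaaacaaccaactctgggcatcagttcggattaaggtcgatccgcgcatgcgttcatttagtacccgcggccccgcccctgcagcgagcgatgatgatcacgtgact
Mdm2 (chr10:117710759-117711008, - strand): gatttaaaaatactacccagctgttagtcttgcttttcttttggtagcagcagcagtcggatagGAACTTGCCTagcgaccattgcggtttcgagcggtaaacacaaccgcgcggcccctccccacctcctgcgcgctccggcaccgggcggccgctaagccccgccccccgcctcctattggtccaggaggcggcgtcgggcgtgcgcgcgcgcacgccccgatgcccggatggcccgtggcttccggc
Ier5 (chr1:155099637-155099886, - strand): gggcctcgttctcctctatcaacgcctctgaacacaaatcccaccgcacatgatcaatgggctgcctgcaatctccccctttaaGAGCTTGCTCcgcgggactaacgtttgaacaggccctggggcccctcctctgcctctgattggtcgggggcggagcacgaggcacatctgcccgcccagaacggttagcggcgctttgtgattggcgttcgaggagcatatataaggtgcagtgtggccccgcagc

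Immediate early genes, which cells switch on within minutes of a stimulus, had a median effect of 0.23 in WAT and −0.54 in BAT. Of 25 tested, 17 had a negative difference, 11 at an unadjusted p under 0.05 (10.1% of all genes tested), and Ier5 passed. In WAT 3 of the 25 rose (2.68%) and none fell, and in BAT none passed in edgeR (10 were lower at an unadjusted p under 0.05, as were 1077 of all 16391). The median difference of −0.83 was −0.46 without BAT control 2 and −0.35 with the B lymphocyte covariate. Egr3, a zinc finger factor, measured 1.66, 6.65 and 1.57 CPM in WAT controls and 20.3, 15.3 and 30.6 in WAT AKO. The BAT levels were 1.04, 4.16 and 1.68 in controls and 2.195, 2.21 and 1.23 in AKO. WAT control 2 was the highest WAT control, as it was for Cd79a, and with the B lymphocyte share as a covariate the difference was −1.58 (adjusted p = 0.369). Without the covariate the Egr3 difference was −3.03 (adjusted p = 0.129, and 0.0273 with the genotype-number block). Myc, a growth-promoting factor, had effects of 0.46 in WAT and −1.02 in BAT (difference −1.49, adjusted p = 0.101, and 0.0322 with the block). Btg2, an antiproliferative p53-responsive gene, had 0.42 and −0.97 (difference −1.39, adjusted p = 0.115).

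Cytokine and adhesion genes had a median effect of −0.23 in WAT and −1.11 in BAT over 19 tested. Of these 9 had a negative difference at an unadjusted p under 0.05 (10.1% of all genes tested), and Icam1 passed. In WAT 3 rose (2.68% of all genes tested did) and 1 fell (3.61%), and in BAT 1 fell (0.0244%). The median difference of −1.10 was −0.69 with the B lymphocyte covariate. Without WAT AKO 2 it was −1.67, over 22 genes that then passed the filter, so these 2 medians cover different genes. Ccl7, a monocyte chemokine, fell in BAT, from 1.64, 6.06 and 8.46 CPM in controls to 0.274, 0.294 and 0.288 in AKO (log2 −4.20, adjusted p = 0.049). In WAT it measured 4.27, 3.49 and 7.18 in controls and 3.03, 2.04 and 3.49 in AKO, and the difference was −3.41 (adjusted p = 0.0845). Vcam1, an endothelial adhesion molecule for leukocytes, rose in WAT, from 25.1, 27.5 and 32.6 to 60.8, 63.9 and 70.7 CPM (log2 1.20, adjusted p = 0.006). Its BAT levels overlapped, at 11.6, 10.2 and 9.19 in controls and 10.98, 9.93 and 13.6 in AKO (difference −1.04, adjusted p = 0.0701, and 0.0473 with the genotype-number block). Il1rn, the secreted antagonist of the interleukin-1 receptor, went the other way. It fell in WAT (log2 −2.53, adjusted p = 0.0111) with a BAT effect of −0.12 and a difference of 2.42 (adjusted p = 0.0806).

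All 32 extracellular matrix genes tested had a negative WAT effect, with a median of −0.85, and 15 fell (3.61% of all genes tested did). In BAT the median was −0.22, 25 were negative and none passed in edgeR (9 were lower at an unadjusted p under 0.05, as were 1077 of all 16391). The difference was positive for 26 of 32, and at an unadjusted p under 0.05 for 12 (8.34% of all genes tested). It passed for none in edgeR and for 8 in DESeq2, all positive (615 of all 16391 in that direction). The median difference of 0.51 was 0.28 with the B lymphocyte covariate. Lum, a collagen-binding proteoglycan, measured 106, 80.2 and 97.02 CPM in WAT controls and 52.9, 58.2 and 41.2 in WAT AKO, against 16.1, 22.1 and 17.5 in BAT controls and 25.7, 25.5 and 20.3 in BAT AKO. Its difference was 1.25 (adjusted p = 0.0646, and 0.0344 with the genotype-number block). Collagens Col6a3, Col16a1 and Col5a1 had WAT effects of −1.02, −1.54 and −0.93. Their BAT effects were −0.21, −0.10 and −0.27. Outside this list, Fap, a protease of activated fibroblasts, passed the test of the difference (−0.72 in WAT, 0.44 in BAT, difference 1.17, adjusted p = 0.0482). Of 13 adipose progenitor genes tested, 8 had a positive and 5 a negative difference, with a median of 0.14. In edgeR 1 of the 13 passed in each direction (0.153% and 0.122% of all genes tested).

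Macrophage genes had mostly negative effects in both depots, in 22 of 27 in WAT (median −0.60) and in 25 of 27 in BAT (median −0.55). In WAT 8 fell (3.61% of all genes tested did) and 2 rose (2.68%). In BAT none passed in edgeR, with 8 lower and 0 higher at an unadjusted p under 0.05 (1077 and 787 of all 16391). The difference passed for none in edgeR, and for 4 in DESeq2 (965 of all 16391 genes tested did). At an unadjusted p under 0.05, 3 were positive and 4 negative (8.34% and 10.1% of all genes tested). The genes of the list took 1.14% to 1.24% of counts in WAT controls and 0.715% to 1.01% in WAT AKO, against 0.222% to 0.356% in BAT controls and 0.274% to 0.325% in BAT AKO. Adgre1 (F4/80), a defining macrophage surface protein, measured 56.01, 45.3 and 35.2 CPM in WAT controls and 19.5, 20.6 and 14.8 in WAT AKO. Its BAT levels overlapped, at 9.696, 8.04 and 8.97 in controls and 8.99, 9.27 and 12.5 in AKO (difference 1.52, adjusted p = 0.0574, and 0.0459 with the genotype-number block). Unlike most of the list, Adgre1 had a positive BAT effect (0.21). Clec4n (dectin-2), a receptor for fungal sugars, had the opposite pattern, with effects of 1.23 in WAT and −0.67 in BAT. Its difference was −1.90 (adjusted p = 0.0884, and 0.0459 with the genotype-number block). Cd14, a coreceptor for lipopolysaccharide, had −0.06 and −0.92 (difference −0.85, adjusted p = 0.14). Mmp12, a macrophage elastase, had effects of −3.03 in WAT and −0.39 in BAT (difference 2.64, adjusted p = 0.115).

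Opposite effects were also described without the test, as genes separated in both depots with opposite signs and a log2 fold change of at least 0.5 in each. Higher in BAT AKO and lower in WAT AKO were 39 genes (0.238%), and the reverse held for 79 (0.482%). Beside Insig1, the first set held Rgs7bp, an anchor of G protein regulators (difference 2.34, adjusted p = 0.0482), Reps2, an endocytosis adaptor (2.30, 0.0503, and 0.0461 with the genotype-number block), and Angptl1, an angiopoietin-like protein (2.53, 0.0773 and 0.0462). Esrrg, an orphan nuclear receptor of oxidative metabolism, measured 1.96, 1.96 and 3.89 CPM in WAT controls and 1.82, 0.847 and 0.689 in WAT AKO. For BAT the values were 13.9, 25.4 and 8.09 in controls and 31.8, 31.9 and 41.4 in AKO (difference 2.35, adjusted p = 0.116). Ephb2, an ephrin receptor, had a difference of 1.77 (adjusted p = 0.0981, and 0.0322 with the block). Limch1, an activator of non-muscle myosin, and Dclk3, a kinase, had 1.82 and 3.19 and did not pass.

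Of the reverse set 8 genes are named by the rule, Bax among them. Slc2a3, a glucose transporter, measured 18.3, 8.42 and 5.76 CPM in WAT controls and 28.5, 38.6 and 30.9 in WAT AKO, against 18.1, 4.44 and 18.2 in BAT controls and 3.91, 3.75 and 3.53 in BAT AKO (difference −3.45, adjusted p = 0.0768, and 0.0322 with the genotype-number block). Pvt1, a non-coding gene next to Myc, and Ifitm1, an antiviral membrane protein, had differences of −3.60 (adjusted p = 0.0572, and 0.0272 with the block) and −2.79 (0.0611 and 0.0431). Cxcl13, the chemokine that draws B lymphocytes, measured 12.9, 12.2 and 0.9601 CPM in WAT controls and 52.5, 41.8 and 69.3 in WAT AKO, and at most 2.39 in BAT. Marco, a scavenger receptor, measured 1.91, 16.99 and 4.65 in WAT controls and 38.05, 58.4 and 69.00 in WAT AKO. Ccl22, a chemokine for regulatory T lymphocytes, measured 1.104, 25.6 and 0.859 in WAT controls and 36.01, 30.1 and 45.5 in WAT AKO. WAT control 2 was the highest WAT control for Marco and Ccl22, as for Cd79a. With the B lymphocyte share as a covariate the differences were −3.31 for Marco (adjusted p = 0.427) and −1.95 for Ccl22 (adjusted p = 0.615), against −4.33 and −3.29 without it (adjusted p = 0.214 and 0.284). These fitted values depend on the prior count for Marco, which measured at most 0.282 CPM in BAT. Mmp25, a leukocyte metalloproteinase, had a difference of −3.35 (adjusted p = 0.154).

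Depot-limited effects were taken as separated groups with an unadjusted p under 0.05 and at least a 2-fold change in 1 depot, and overlapping groups with a log2 fold change under 0.25 in the other. WAT-limited genes numbered 240 higher (1.46%) and 94 lower (0.573%), and BAT-limited genes 25 higher (0.153%) and 30 lower (0.183%). Among the WAT-limited genes, Car2, a carbonic anhydrase, Swap70, a signalling protein of B lymphocytes and other cells, and Rnf157, a ubiquitin ligase, rose in WAT, with log2 fold changes of 1.80, 1.48 and 1.60. Their differences of −1.94, −1.48 and −1.49 did not pass (adjusted p between 0.0768 and 0.0829; 0.0382 for Car2 with the genotype-number block). On the lower side, Krt79, Cyb5b, a cytochrome b5 of the outer mitochondrial membrane, and Trp53inp2, an autophagy factor, passed the test of the difference. Cyb5b measured 462, 458 and 632 CPM in WAT controls and 249.8, 259.9 and 247 in WAT AKO, against 259, 269 and 256 in BAT controls and 289, 250.2 and 325 in BAT AKO (difference 1.18, adjusted p = 0.0433). For Trp53inp2 the levels were 1792, 1406 and 1998 in WAT controls and 719, 939 and 645 in WAT AKO and 775, 699 and 755 in BAT controls and 746, 837 and 944 in BAT AKO (difference 1.36, adjusted p = 0.0494). Kcnj14, an inward rectifier potassium channel, fell in WAT (log2 −1.88; difference 1.97, adjusted p = 0.0503, and 0.013 with the block).

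Of the BAT-limited genes named here Tfrc alone passed the BAT test. Tfrc, the transferrin receptor of iron uptake, rose in BAT from 19.02, 16.6 and 21.9 CPM to 56.5, 38.9 and 44.4 (log2 1.28, adjusted p = 0.049), and measured 24.3, 27.7 and 23.6 in WAT controls and 22.5, 32.6 and 23.00 in WAT AKO. The difference was 1.23 (adjusted p = 0.0742). Utp14b, a ribosome assembly factor, Pde7b, a cAMP phosphodiesterase, and Sh2d4a, an adaptor, had BAT effects of 1.02, 1.12 and 1.08. Their WAT effects were −0.08, −0.24 and −0.22, and of the 3 differences only that of Sh2d4a passed with the genotype-number block (adjusted p = 0.0462). Lower in BAT AKO was Trib1, a pseudokinase that directs degradation of C/EBP alpha. It measured 119, 125 and 101 CPM in BAT controls and 43.9, 41.4 and 53.3 in BAT AKO, and 41.6, 25.3 and 39.1 in WAT controls and 28.1, 43.95 and 28.6 in WAT AKO (difference −1.24, adjusted p = 0.0981). Socs3, a feedback inhibitor of cytokine receptors, Il4ra, the interleukin-4 receptor chain, and Csf3r, the granulocyte colony-stimulating factor receptor, had BAT effects of −1.55, −1.21 and −1.49. Their WAT effects were 0.08, −0.06 and 0.11, and none of these differences passed (adjusted p between 0.0963 and 0.151).

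Of 27 thermogenic genes tested none passed the test of the difference in edgeR, with 5 positive and 2 negative at an unadjusted p under 0.05 (8.34% and 10.1% of all genes tested; 6 passed in DESeq2), and the median effects were −0.06 in WAT and 0.12 in BAT. In BAT, Ucp1 measured 4464, 3690.3 and 3793 CPM in controls and 4369, 3779.7 and 5091 in AKO. In WAT it measured 0.251, 0 and 0.455 in WAT controls and 11.04, 0.449 and 4.09 in WAT AKO, so its WAT effect rests on WAT AKO 1 and 3 at levels far under those of BAT. Ppargc1a, the coactivator of mitochondrial biogenesis, had effects of 0.29 in WAT and 0.62 in BAT (difference 0.33, 95% interval −0.49 to 1.14). Kcnk3, a potassium channel of brown adipocytes, and S100b, a secreted factor for sympathetic nerves, fell in WAT with log2 fold changes of −0.80 and −0.68 and had BAT effects of 0.09 and 0.14. The Kcnk3 difference had an adjusted p of 0.0742, and of 0.0459 with the genotype-number block. Slc29a1, a nucleoside transporter, had −0.22 in WAT and 0.72 in BAT. Adipoq, the adipocyte hormone adiponectin, had −0.38 and 0.16 (difference 0.54, adjusted p = 0.173). Pparg, the master regulator of adipocyte differentiation, had a difference of 0.26 (95% interval −0.12 to 0.63). Leptin had effects of −1.03 and −1.05, with an interval of −1.42 to 1.38 on the difference of −0.02. Of 37 complex I subunits none had a difference at an unadjusted p under 0.05, where 18.4% of all genes tested did. Lists of other cell types turned on single libraries. The median difference of the muscle list, 2.76 with 22 of 23 positive, was −1.58 with 0 of 23 positive without BAT AKO 2. That of the B lymphocyte list was −2.66, and −7.12 without WAT control 2 or −1.23 without BAT control 2. For the T and NK lymphocyte list it was −1.47, and −4.16 without WAT control 2 or −0.03 with WAT control 2 as the only WAT control.

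**Figure D5:**
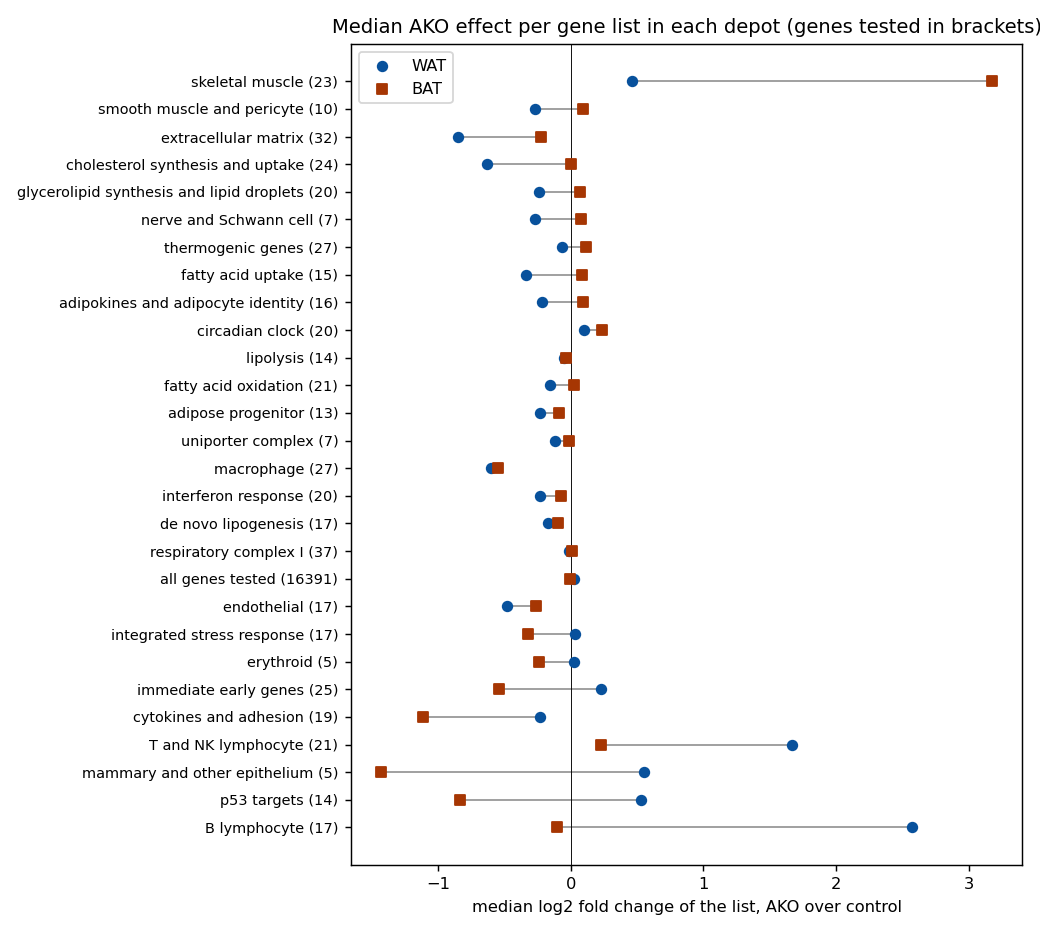
Median log2 fold change of AKO over control in WAT (circles) and BAT (squares) for 27 gene lists and for all genes tested, ordered by the median difference, with the number of genes tested in brackets. The p53, cytokine and immediate early lists lie lower in BAT, the matrix and cholesterol lists lower in WAT, the muscle list lies higher in BAT, which turns without BAT AKO 2 (median difference −1.58), and the lymphocyte lists higher in WAT, with a T and NK median difference of −0.03 where WAT control 2 is the only WAT control.

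Effects shared by the depots were also seen. Groups were separated in both depots with the same sign for 514 genes (3.14%; 188 higher, 1.15%, and 326 lower, 1.99%), against 421 (2.57%) with opposite signs. Fam13a, an adipose gene linked to body fat distribution, measured 119.6, 84.2 and 49.2 CPM in WAT controls and 372, 357 and 339 in WAT AKO. In BAT it measured 301, 296 and 174 in controls and 517, 382 and 629 in AKO (difference −1.09, adjusted p = 0.213). F7, coagulation factor VII, was lower in AKO, with effects of −2.80 and −1.37. Besides Mcu, 4 genes passed in both depots, and these were chosen after their values were seen: Rpl29, a ribosomal protein gene, with effects of −0.70 and −1.06, and the pseudogenes Gm11868 (4.06 and 4.32), Tma7-ps (1.48 and 1.54) and Gm8210 (5.87 and 5.62). Reads of pseudogenes may belong to near-identical copies, so these values are uncertain. None of the 5 passed the test of the difference in edgeR.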

How the data were processed

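PolyA RNA from inguinal WAT and BAT was extracted with TRIzol, made into libraries with a VAHTS Universal V6 kit and sequenced, per the labels' protocols. The authors deposited a table of raw read counts per gene and a table of FPKM values for the same 12 libraries. The submitters' processing notes name HISAT2 2.1.0, Bowtie2 2.2.3, HTSeq 0.6.0 and the mm10 build, and the strand setting is not given in the sources used here. Symbols came from GENCODE M21 for 52403 of 52550 IDs.

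Counts were filtered with filterByExpr (count of at least 10, total of at least 15), TMM-normalised and fitted with edgeR 4.0.16's quasi-likelihood test in R 4.3.3 on all 12 libraries with 1 mean per group. Contrasts were AKO minus control in each depot and their difference, and p-values were Benjamini-Hochberg adjusted over all genes, with a threshold of 0.05. Levels are TMM-normalised CPM unless called CPM of the library total. Alternatives used limma 3.58.1, DESeq2 1.42.0 and log2(FPKM + 1 or 0.1) of the deposited FPKM. The code was tested on simulated counts of 16391 genes, in which 100 genes differed 2-fold between depots and 100 differed 4-fold. The test of the difference recovered 20 and 72 of these, and 6 of the 98 genes called were false. The counts were drawn for each gene independently, without the variation across genes that the real libraries share. The changed genes were not taken from those at the lowest levels. These rates need not hold for the real libraries. A gene that did not pass may therefore still differ. The difference uses separate controls in each depot.

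Same-numbered WAT and BAT libraries of a genotype deviated together in all 6 pairs (Pearson r across genes 0.136 to 0.676), although WAT AKO 3 correlated more with BAT AKO 1 (0.431) than with its own number (0.136). Some pairs of different genotype, which cannot share an animal, correlated as highly. WAT control 1 had r = 0.653 with WAT AKO 2 and 0.517 with BAT control 1. WAT control 3 had 0.617 with WAT AKO 1 and 0.45 with BAT control 3. These correlations therefore do not show that a number marks an animal. The labels do not say that a number marks an animal. A fit with genotype and number as a block (genotype-number block) is given where it changes a call. Named genes were a fixed set, those with the smallest p for the difference, those with opposite, depot-limited or shared effects, and up to 4 per list; a few genes that these rules name are not reported here. Genes and lists were chosen with earlier results of these data known.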

Additional observations from a re-analysis of the deposited data

Results flagged for a closer look

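For each gene here the AKO effect in BAT differed from that in WAT by edgeR's test of the difference. The estimates in the 2 depots had opposite signs, but the BAT effect passed its own test for Klf11 alone. The BAT groups overlapped for Krt79, Cyb5b, Trp53inp2, Dgat2 and Pmaip1. A more positive effect in BAT was found for Klf11 (1.38), Lipa (1.23), Steap3 (1.29), Agpat2 (1.66), Krt79 (1.61), Prps1 (1.54), Ptger3 (2.01), Daam1 (1.00) and Anpep (1.46). The same held for Gnb5 (0.76), Paqr9 (1.94), Trim16 (1.43), Insig1 (2.84), Dgat2 (1.59), Rgs7bp (2.34), Cyb5b (1.18), Trp53inp2 (1.36) and Fap (1.17). A more negative effect in BAT was found for Ier5 (−2.79), Snhg15 (−2.97), Aaas (−2.19), Bbc3 (−2.49), Icam1 (−2.23), Pdcd11 (−0.86) and Irf2 (−0.92). It was also found for Zfp688 (−1.48), H2afj (−1.54), Trpm2 (−3.39), Mcm7 (−0.70), Pidd1 (−1.69), Pmaip1 (−3.85) and Cxcr2 (−6.83). The value for Cxcr2 is a fitted one that depends on the prior count, since BAT AKO libraries lie at or near 0. That for Pmaip1 rests on BAT levels of at most 1.20 CPM.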

How the results depend on the processing

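The number of genes whose effect differed between depots, 45 as reported, was 132 without the low-count filter, 965 with DESeq2, 24 with limma voom, 99 on log2(FPKM + 1), 86 on log2(FPKM + 0.1), 112 at a mean FPKM of at least 1 and 329 at an adjusted p under 0.1. It was 261 with genotype and number together as replicate block and 30 with the number alone as replicate block. It was 5 without the 3 libraries with most muscle counts, 24 with WAT control 2 as the only WAT control, 21 with a muscle covariate and 5 with a B lymphocyte covariate. Of settings chosen after seeing the data, leaving out control 2 of both depots gave 791, and control 2 as the only control of each depot gave 0 (1523 at an unadjusted p under 0.05, edgeR), with the lone controls assumed to vary like the AKO groups. Leaving out each library in turn gave 2 to 923. All 45 kept their direction under every alternative in which they were tested. Since the alternatives reuse most of the libraries in which the 45 were chosen, the kept direction says little of stability.

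The WAT count of 1030 was 2505 with DESeq2, 2381 with voom, 1562 at a mean FPKM of at least 1, 576 with the replicate block, 139 without the muscle libraries, 17 with WAT control 2 as the only WAT control, 21 with the B lymphocyte covariate, 3 with the depot's 6 libraries alone, 3111 without control 2, 36 with control 2 alone, 2554 at an adjusted p under 0.1 and 371 at 2-fold or more. Leaving out each library gave 45 to 2992. With the 6 BAT libraries alone, 11 genes passed in BAT. The BAT count of 9 was 23 without the filter, 190 with DESeq2, 20 on log2(FPKM + 0.1), 5 with the replicate block, 4 without the muscle libraries, 236 without control 2, 0 with control 2 alone (1050 at an unadjusted p under 0.05, edgeR), 19 at an adjusted p under 0.1 and 4 to 73 leaving out each library. The exact permutation p for Mcu was 0.1 in each depot, the smallest possible, also with RLE, with TMM within depots and leaving out each of the depot's libraries, which says nothing of stability.

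Some differences that did not pass changed sign. Micu2 was −0.070 on log2(FPKM + 1) with or without the FPKM minimum, −0.075 on log2(FPKM + 0.1), −0.038 with the B lymphocyte covariate and −0.00494 to 0.14 leaving out libraries. Smdt1 was 0.062 with RLE and with DESeq2, 0.038 with TMM within depots, 0.025 without the filter, 0.039 with WAT control 2 alone, 0.040 with the B lymphocyte covariate, 0.051 without control 2 and −0.051 to 0.054 leaving out libraries. Lep was 0.042 with RLE and with DESeq2, 0.012 with TMM within depots, 0.017 without the filter, 0.18 with voom and with the genotype-number block, 0.056 and 0.043 on the FPKM scales, 0.41 without the muscle libraries, 0.071 with the muscle covariate, 0.78 with control 2 alone and −0.39 to 0.66 leaving out libraries. Gm11868 was −0.089 and −0.017 on the FPKM scales and −0.000482 to 0.96 leaving out libraries. Tma7-ps was −0.091 and −0.085 on the FPKM scales, −0.045 without control 2 and −0.047 to 0.18 leaving out libraries. Gm8210 was 0.086 with the B lymphocyte covariate, 0.92 without control 2 and −0.78 to 0.99 leaving out libraries. The cause was not tested. The median of all differences was −0.02 as reported, −0.03 on log2(FPKM + 1), −0.13 on log2(FPKM + 0.1) and −0.12 at a mean FPKM of at least 1, and small differences on the last 2 scales are relative to that shift. With 3 libraries a group, the number of libraries limits precision more than their depth.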
